A study of Mus musculus with 16 samples.

Results

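The microRNAs described here are mmu-miR-10a-5p, mmu-miR-10b-5p, mmu-miR-196a-5p and mmu-miR-196b-5p, whose hairpins lie inside the Hox clusters. They were taken by name from a table of 1915 mature mouse microRNAs, in which all 4 were present. The table holds counts from extracellular vesicles (EVs) of bone marrow plasma, 1 library per mouse, from 16 C57BL/6N mice aged 6 months. Every mouse carried the CAGS-Snorkel allele, whose vesicles were pulled down with an antibody to the HA tag. In 6 mice (3 male, 3 female) it was combined with Ocn-Cre, active in mature osteoblasts and osteocytes, and in 10 mice (5 male, 5 female) with Prx1-Cre, active in the mesenchyme of the limb buds and in cells that descend from it. The groups are referred to by their driver, as Ocn and as Prx1. The labels name neither the bones that gave the plasma nor the sex of the mouse behind each library. Vesicles of mice without Cre were not analysed here, so a background level of the members in the pull-down was not measured.

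Hox genes are transcription factors that lie in 4 clusters and mark the position of a cell along the body axis and along the limb, and mesenchymal cells of the adult skeleton keep much of the Hox pattern of the place where they arose. The miR-10 and miR-196 genes sit among the Hox genes and are transcribed in overlapping regions of the body. A mature microRNA guides silencing proteins to messenger RNAs, mainly through its seed (bases 2 to 8 from its 5′ end), and targets of miR-196 are known to include Hox messages such as Hoxb8. miR-10a and miR-196b are also known from blood-forming cells.

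The sequences are shown first because each pair differs by 1 base outside the seed, so that the members of a pair share their seed and are told apart by a single letter of the read. Capitals mark the seed and base 12. The sequences are from RefSeq (GRCm38.p6).
mmu-miR-10a-5p: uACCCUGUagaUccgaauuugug
mmu-miR-10b-5p: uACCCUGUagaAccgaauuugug
mmu-miR-196a-5p: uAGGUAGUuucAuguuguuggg
mmu-miR-196b-5p: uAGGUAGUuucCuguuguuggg

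Counted from the 5′ end, miR-10b-5p differs from miR-10a-5p by U12A, and miR-196b-5p differs from miR-196a-5p by A12C. Of the 1915 entries, 1623 had a RefSeq sequence, and the seed of each pair was found at bases 2 to 8 of no entry outside that pair. The 7 bases of the miR-196 seed also stand in 8 of 9 guide arms of the let-7 and miR-98 family, 1 base further from the 5′ end. In let-7a-5p they are bases 3 to 9, shown in capitals.
mmu-let-7a-5p: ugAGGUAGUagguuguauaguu

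miR-10a and miR-10b belong to a wider family with miR-99 and miR-100, whose seeds differ. The 10 bases after the first 6 of miR-10a-5p recur in miR-99a-5p and miR-100-5p and in no further entry of the 1623. The matching 10 bases of miR-10b-5p recur in miR-99b-5p alone. Capitals mark these bases.
mmu-miR-99a-5p: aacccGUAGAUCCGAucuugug
mmu-miR-99b-5p: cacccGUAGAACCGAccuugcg

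The 5 hairpins of the members lie in all 4 Hox clusters of mm10. Mir10a (chr11:96317165-96317274, plus strand) lies in the Hoxb cluster, outside other annotated genes, 992 bases before Hoxb4. Mir10b (chr2:74726070-74726137, plus strand) lies in the Hoxd cluster, in introns of Hoxd4 and of a long Hoxd3 transcript. Mir196a-1 (chr11:96265164-96265265, plus strand) stands 6191 bases before Hoxb9, outside other annotated genes. Mir196a-2 (chr15:102973350-102973434, plus strand) lies between Hoxc10 and Hoxc9, in an intron of a long Hoxc5 transcript. Mir196b (chr6:52230081-52230165, minus strand) lies 1031 bases after Hoxa10, within Hoxa9, where 2 of the 3 transcripts that span it have an exon with no annotated coding sequence or UTR at that point. Mir10b is thus the member from the Hoxd cluster, miR-196b-5p the member from Hoxa, and miR-10a-5p comes from Hoxb.

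**Figure D1:**
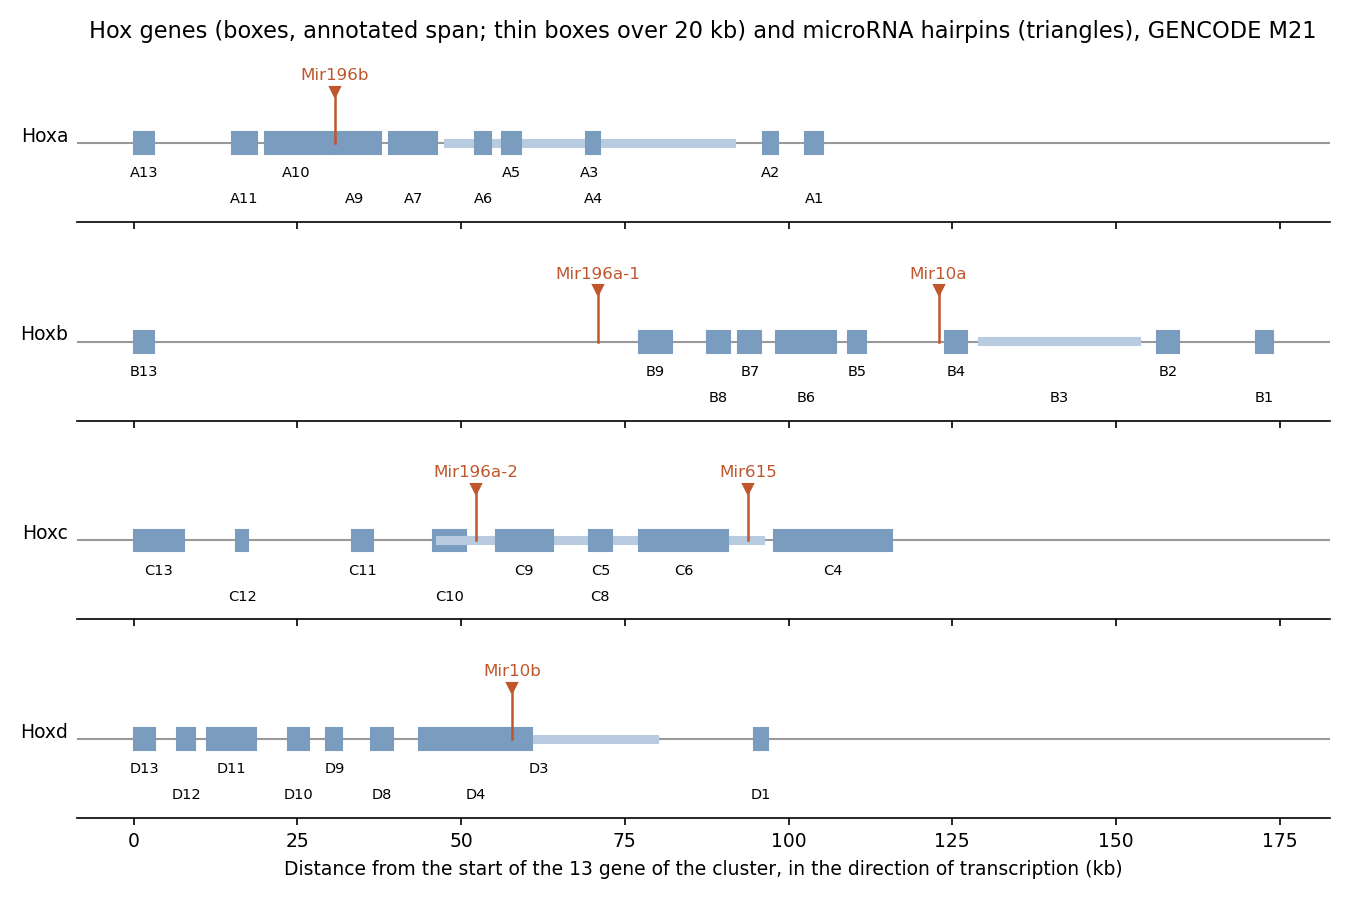
Hox genes (boxes, annotated span) and microRNA hairpins (orange triangles) of the 4 clusters, by distance in kb from the outer end of the group 13 gene in the direction of transcription. Mir196a-1 and Mir196a-2 lie just before the group 9 gene of their cluster, Mir196b lies within the span of Hoxa9, and Mir10a lies just before Hoxb4.

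miR-196a-5p has the same sequence from both of its hairpins, so its counts cannot be assigned to either cluster. The other arms differ between the hairpins and are shown for that reason. Capitals mark the 2 mature arms in each hairpin.
Mir196a-1: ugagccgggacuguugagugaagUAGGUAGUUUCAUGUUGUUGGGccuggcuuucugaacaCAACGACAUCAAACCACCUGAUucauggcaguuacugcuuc
Mir196a-2: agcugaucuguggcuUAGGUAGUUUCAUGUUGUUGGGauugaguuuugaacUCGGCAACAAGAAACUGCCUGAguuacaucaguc

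Across the 16 libraries miR-196a-5p had 43805 counts, while the 3p arm of Mir196a-2 had 8 counts in 8 libraries. The 3p arm of Mir196a-1 had 0 counts, which allows up to 0.310 CPM (counts per 1000000 counts) in the summed libraries. At this depth the 3p arms do not tell which hairpin the 5p counts came from. The 3p arm of Mir196b had 4 counts in 3 libraries against 22970 for miR-196b-5p. The miR-10 hairpins left more of their 3p arms: miR-10a-3p had 458 counts, or 63.0 miR-10a-5p counts for each, and miR-10b-3p had 64 counts, or 104.1 miR-10b-5p counts for each. The remaining microRNA of the Hox clusters, miR-615 (an intron of Hoxc5), was represented by 122 counts of its 3p arm, and its 5p arm had 0.

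Library totals ranged over 582660 to 1536421 counts for Ocn and 225273 to 813770 counts for Prx1, so that Ocn libraries held more microRNA counts, with some overlap. CPM values below are relative to the library total. The members had at least 172 counts in every library, so that 3 counts, a limit of 1.95 to 13.3 CPM depending on the library, lie far below them. As vesicles of all cells with an active reporter were pooled in a sample, more vesicles of a cell type and more of a microRNA per vesicle cannot be told apart. Mesenchymal markers listed for this comparison (6 arms of miR-199a, miR-199b, miR-214, miR-143 and miR-145a) were all counted and summed to 31459 to 43099 CPM in Ocn and 26540 to 35015 CPM in Prx1. Of these 1 was higher in Ocn and 0 lower (miR-199a-5p, log2 fold change 0.43, SE 0.13, edgeR adjusted p = 0.0290). Of all 234 tested entries 13.7% passed in either direction. The values of miR-199b-5p (0.49), miR-143-3p (0.29) and miR-199a-3p (0.11) lay above 0 and did not pass. Those of miR-214-3p (-0.29) and miR-145a-5p (-0.19) lay below 0, and the list had a median of 0.20. The 3 myeloid markers (miR-223-3p and both arms of miR-142a) summed to 39067 to 94359 CPM in Ocn and 42090 to 68987 CPM in Prx1. In Prx1 5 the liver microRNA miR-122-5p reached 1644 CPM, while its highest value in Ocn was 23.5 CPM and its median in Prx1 was 7.17 CPM.

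Together the 4 members made up 1.01% ± 0.12 of the counts of the Ocn libraries (SD, n = 6). They made up 1.10% ± 0.16 of those of the Prx1 libraries (SD, n = 10). miR-196a-5p was the most abundant by mean over all libraries (4566 CPM), followed by miR-10a-5p (2945 CPM), miR-196b-5p (2420 CPM) and miR-10b-5p (721 CPM). In that order they were at ranks 33, 42, 45 and 71 of the 234 entries that passed the filter on low counts. miR-196a-5p exceeded miR-10a-5p in 14 of 16 libraries, the others being Prx1 2, where both had 1060 counts, and Ocn 3. miR-10a-5p exceeded miR-196b-5p in 11 of 16 libraries, so this pair of neighbours did not keep one order. miR-10b-5p was the lowest of the 4 in all 16 libraries. These orders are of counts, and the efficiency of adaptor ligation can differ between sequences.

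**Figure D2:**
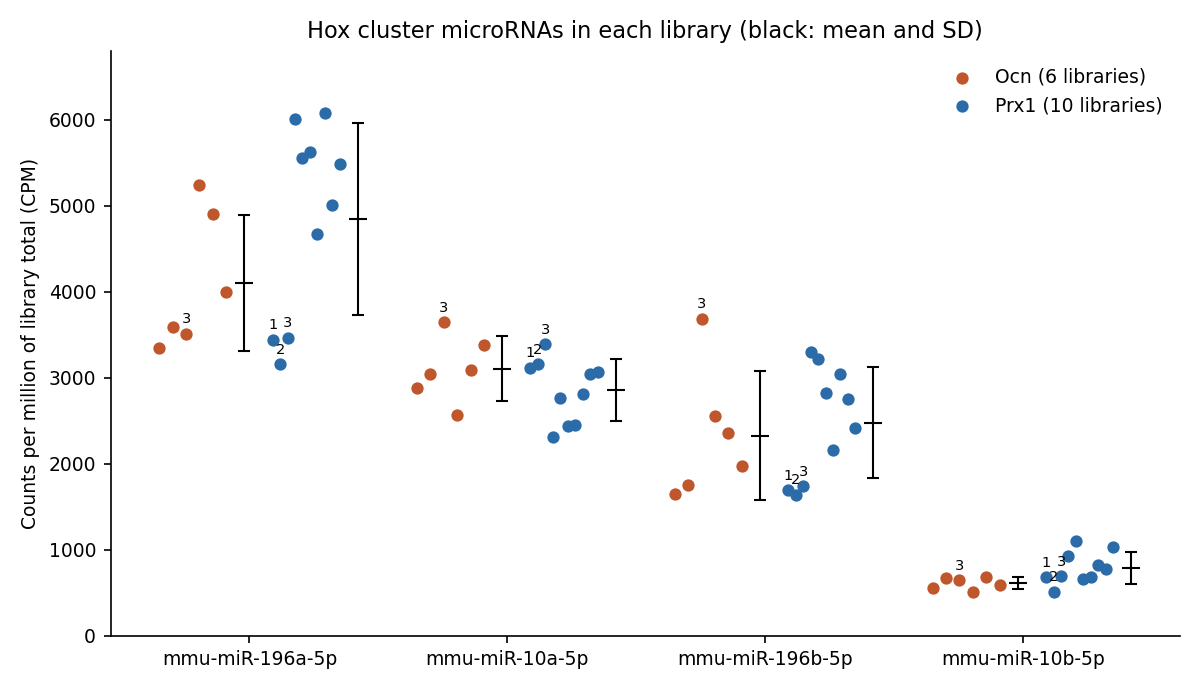
CPM (relative to the library total) of the 4 members in each library (points), with group mean and SD (black), for 6 Ocn and 10 Prx1 libraries. Numbers mark Ocn 3 and Prx1 1, 2 and 3. Prx1 1, 2 and 3 are the lowest Prx1 libraries for both miR-196 microRNAs, and Ocn 3 is the highest of all for miR-196b-5p.

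The comparison of Ocn with Prx1 sets vesicles marked through Ocn-Cre against those marked through Prx1-Cre. None of the 4 members passed the threshold (edgeR quasi-likelihood, Benjamini-Hochberg adjusted p under 0.05 over all 234 tested entries). In the same fit 32 of the 234 entries, 13.7%, passed. At an unadjusted p under 0.05, 1 of the 4 members passed (miR-10b-5p), against 62 of 234 entries, 26.5%. The CPM of the groups overlapped for all 4 members, and were apart for 9 of 234 entries, 3.85%.

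miR-10b-5p, the Hoxd member, came nearest to the threshold. Its lowest, median and highest values were 509, 619 and 687 CPM in Ocn and 512, 729 and 1105 CPM in Prx1. The Ocn libraries filled the lower part of the Prx1 range: all 6 lay below the Prx1 mean, and 6 of 10 Prx1 libraries lay above the highest Ocn library. Ocn averaged 609 ± 69.5 CPM (SD, n = 6), and Prx1 averaged 788 ± 185 CPM (SD, n = 10). The log2 fold change of Ocn over Prx1, on TMM-scaled counts, was -0.41 (SE 0.14, 95% interval -0.70 to -0.11, edgeR adjusted p = 0.0569). The value crossed the threshold with DESeq2 (adjusted p = 0.0412), with limma voom (adjusted p = 0.0213), with the 5 most abundant entries removed (edgeR adjusted p = 0.0492) and without Prx1 2 (edgeR adjusted p = 0.0247). It stayed short of the threshold in 11 of 14 other settings and in 15 of 16 fits with a library left out. Among the 11 is the fit with the miR-10 pair summed, which does not measure miR-10b-5p alone. With counts thinned to the shallowest library the value was -0.42 (edgeR adjusted p = 0.138). With Prx1 libraries 1 to 6 only it was -0.32 (edgeR adjusted p = 0.220). Adjusted for the log10 total of each library, the value was -0.43 (SE 0.22, edgeR adjusted p = 0.341).

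Markers of muscle and of erythroid cells had values on both sides of 0 within a list, while the lymphoid markers all lay below 0. The counts of markers that passed stand against 13.7% of all 234 tested entries. Of the muscle markers 2 of 4 tested were lower and 0 higher (miR-133a-3p and miR-133b-3p), with a summed level of 46734 to 77424 CPM in Ocn and 39906 to 70782 CPM in Prx1. The most abundant of them, miR-1a-3p, had a log2 fold change of 0.34 (SE 0.17, edgeR adjusted p = 0.187). Of the erythroid markers 2 of 5 were lower and 0 higher (the near-identical miR-486a-5p and miR-486b-5p), with sums of 23947 to 43670 and 31874 to 47291 CPM. The other 3 erythroid markers had values above 0 (miR-144-3p 0.58, SE 0.20, edgeR adjusted p = 0.0569; miR-451a 0.22; miR-144-5p 0.17), and the median of the list was 0.17. Of the lymphoid markers 1 of 3 was lower (miR-150-5p, -1.05, SE 0.20, edgeR adjusted p = 0.00125), with sums of 2415 to 4895 and 3149 to 6350 CPM. The values of miR-155-5p (-0.25) and miR-342-3p (-0.17) did not pass. None of the markers in these 3 lists was at 0 throughout a group. Their part in the value of miR-10b-5p was not tested. Without Prx1 5, the library with miR-122-5p and the highest miR-10b-5p, the log2 fold change of miR-10b-5p was -0.35 (SE 0.15, edgeR adjusted p = 0.132). The value was -0.34 without Prx1 8 (edgeR adjusted p = 0.149) and -0.35 without Ocn 3 (edgeR adjusted p = 0.172). Filter and scaling were redone in each fit, with 241 entries tested without Prx1 5, 215 without Prx1 8 and 217 without Ocn 3. The values are therefore not the share of a library in the difference, and the part of Prx1 5 was not tested.

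miR-10a-5p, the Hoxb member, differed little between the groups. Its lowest, median and highest values were 2565, 3068 and 3645 CPM in Ocn and 2313, 2924 and 3385 CPM in Prx1. The ranges overlapped over most of their width, and its rank stayed between 39 and 45 in every library. Prx1 1, 2 and 3 had the highest Prx1 values (3117 to 3385 CPM), above the other 7 (2313 to 3061 CPM). Ocn averaged 3101 ± 377 CPM (SD, n = 6), and Prx1 averaged 2852 ± 360 CPM (SD, n = 10). The log2 fold change was 0.09 (SE 0.11, 95% interval -0.14 to 0.31, edgeR adjusted p = 0.688). Its passenger arm miR-10a-3p was the 1 tested entry among the 7 other microRNAs of the Hox clusters and gave a log2 fold change of 0.09 (SE 0.20, edgeR adjusted p = 0.831). The others had too few counts to be tested. miR-615-3p averaged 12.4 ± 4.88 CPM over the Ocn libraries (SD, n = 6) and 13.9 ± 7.06 CPM over those of Prx1 (SD, n = 10).

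miR-196a-5p, from the Hoxb and Hoxc clusters, had lowest, median and highest values of 3348, 3794 and 5245 CPM in Ocn and 3156, 5244 and 6071 CPM in Prx1. Of the Prx1 libraries 5 lay above the highest Ocn library. The remaining Prx1 libraries included 3, Prx1 1, 2 and 3, between 3156 and 3466 CPM, with no Prx1 library between them and the next at 4666 CPM. The log2 fold change was -0.27 (SE 0.16, 95% interval -0.61 to 0.07, edgeR adjusted p = 0.288).

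miR-196b-5p, from the Hoxa cluster, had lowest, median and highest values of 1646, 2164 and 3685 CPM in Ocn and 1641, 2583 and 3298 CPM in Prx1. The highest of all 16 libraries was Ocn 3, and the next Ocn library had 2549 CPM. The lowest 3 Prx1 libraries were again Prx1 1, 2 and 3, at 1641 to 1739 CPM, below the other 7 at 2160 to 3298 CPM. The log2 fold change was -0.13 (SE 0.18, 95% interval -0.51 to 0.25, edgeR adjusted p = 0.707). Without Ocn 3 it was -0.23 (SE 0.20, edgeR adjusted p = 0.468).

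**Figure D3:**
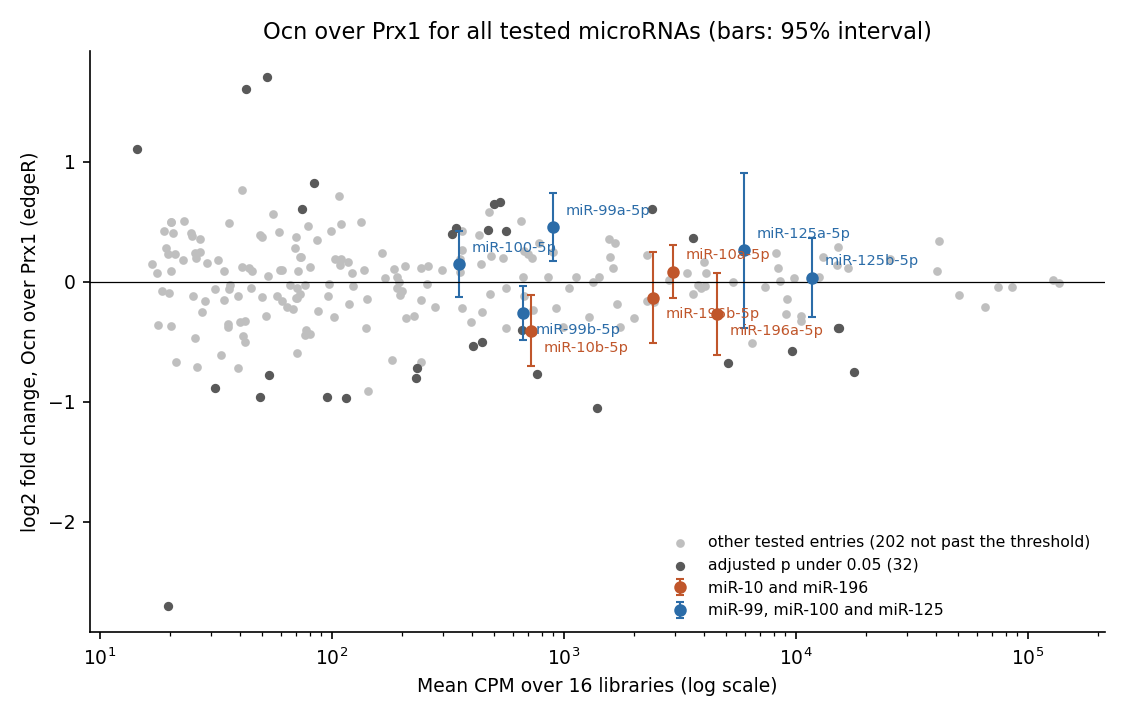
log2 fold change of Ocn over Prx1 (edgeR) against mean CPM over the 16 libraries (log axis) for the 234 tested entries. Bars are 95% intervals for the 4 members (orange) and the related miR-99, miR-100 and miR-125 (blue), and dark grey points are the entries past the threshold. The interval of miR-10b-5p lies below 0, and those of the other 3 members cross 0.

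The members of the miR-10 pair were compared directly, as the ratio of their counts within a library does not depend on scaling. The ratio of miR-10b-5p to miR-10a-5p had a median of 0.195 in Ocn, where its extremes were 0.175 and 0.222. Its median in Prx1 was 0.275, and its extremes there were 0.162 and 0.400. The 6 Ocn libraries were close together, and 7 of 10 Prx1 libraries lay above all of them. The 3 that did not were Prx1 1, 2 and 3, at 0.162 to 0.218, while the other 7 had 0.253 to 0.400. The labels give neither a batch nor the sex for each library, so whether this division of the Prx1 libraries goes with either was not tested. The log2 ratio averaged -2.35 ± 0.15 over Ocn (SD, n = 6) and -1.88 ± 0.42 over Prx1 (SD, n = 10). The difference was -0.47 (exact permutation test over 8008 divisions, two-sided, p = 0.0222). It was no longer past 0.05 with 6 Prx1 libraries (numbers 1 to 6) in place of 10 (difference -0.41, exact permutation p = 0.119), and the test was chosen with earlier results of these data known.

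**Figure D4:**
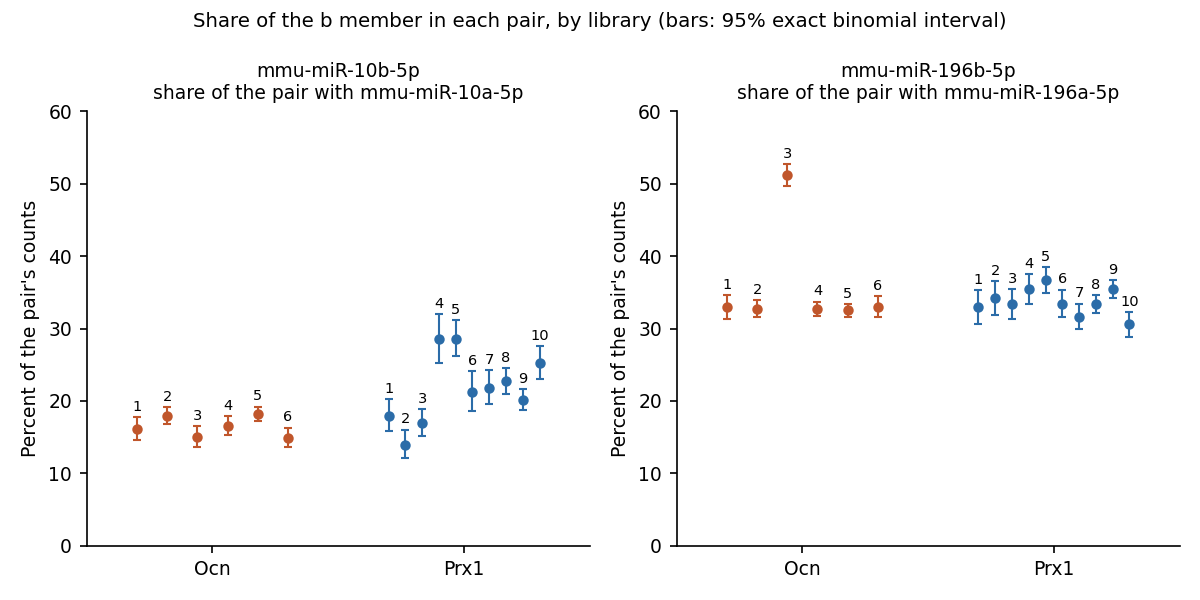
Percent of the counts of each pair that belonged to miR-10b-5p (left) and miR-196b-5p (right), by library and group. Points are libraries with their numbers, and bars are 95% exact binomial (Clopper-Pearson) intervals, which cover counting error only. The share of miR-10b-5p is between 14.9% and 18.2% in the Ocn libraries and reaches 28.6% in Prx1 5, and the share of miR-196b-5p is 51.2% in Ocn 3.

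The ratio of miR-196b-5p to miR-196a-5p was nearly constant in 5 of 6 Ocn libraries and varied more in Prx1 than in those 5. With Ocn 3 included, the SD of the log2 ratio was 0.45 in Ocn and 0.12 in Prx1. In Prx1 10 miR-196b-5p made up 30.6% of the pair (95% exact binomial interval 28.9% to 32.3%). In Prx1 5 it made up 36.7% (34.9% to 38.4%), so the intervals of these libraries, the lowest and the highest of Prx1, did not overlap. The intervals take each count as independent, and whether amplified duplicates were removed was not given. The ratio lay between 0.482 and 0.493 in 5 of 6 Ocn libraries, and between 0.440 and 0.579 in the 10 Prx1 libraries. In Ocn 3 it was 1.05, with 2147 counts of miR-196b-5p and 2045 of miR-196a-5p. There miR-196b-5p made up 51.2% of the pair (95% exact binomial interval 49.7% to 52.7%), against 32.5% to 33.0% in the other Ocn libraries. miR-196a-5p of Ocn 3 (3510 CPM) lay within the range of its group, at -0.24 from the mean of the other 5 on the log2 scale. The larger part of the departure was in miR-196b-5p, at 0.86 above the mean of the other 5. By this excess in Ocn 3 miR-196b-5p was at rank 25 of 234 entries, so other entries departed further in that library. Between the groups the mean log2 ratio differed by 0.12 (exact permutation test, two-sided, p = 0.553), and by -0.06 without Ocn 3 (exact permutation p = 0.293). This second ratio was added after Ocn 3 was seen.

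Whether the members varied together between mice was examined within the groups, over 18 relations of log2 CPM. In Prx1, miR-10a-5p and miR-10b-5p gave a Pearson r of -0.21 (permutation p = 0.550, adjusted p = 0.762) and a Spearman rho of -0.26 (permutation p = 0.469, adjusted p = 0.640), and r was -0.25 without the 2 libraries farthest from the median. Within Prx1 4 to 10 the sign was the opposite, with an r of 0.39 (exact permutation p = 0.353, adjusted p = 0.599) and a rho of 0.32 (exact permutation p = 0.498, adjusted p = 0.640), and r was 0.47 without the 2 farthest libraries. The negative value over all 10 thus depended on including Prx1 1, 2 and 3, where miR-10a-5p was high. The subset Prx1 4 to 10 was chosen with these values known, and no label gives it. In Ocn they gave an r of 0.64 (exact permutation p = 0.169, adjusted p = 0.436) and a rho of 0.54 (exact permutation p = 0.297, adjusted p = 0.640), and r was 0.13 over the 4 libraries left. The miR-10 pair therefore showed no correlation past the threshold in either group. For the miR-196 pair over all 10 Prx1 libraries, r was 0.95 (permutation p = 0.00017, adjusted p = 0.00306). There rho was 0.93 (permutation p = 0.00021, adjusted p = 0.00378), and r was 0.91 without the 2 farthest libraries. These values passed the threshold, but Prx1 1, 2 and 3 were the lowest for both members, and such a division raises a correlation. Leaving them out in turn narrows the range of both members and leaves fewer libraries, which can lower r and raise p. Within Prx1 4 to 10, r was 0.78 (exact permutation p = 0.0375, adjusted p = 0.135), rho was 0.79 (exact permutation p = 0.0480, adjusted p = 0.173), and r was 0.59 without the 2 farthest libraries. In Ocn, r was 0.22 (exact permutation p = 0.688, adjusted p = 0.819), rho was 0.43 (exact permutation p = 0.419, adjusted p = 0.640) and r was -0.04 without the 2 farthest libraries. Values of 1 library share a total, which links them.

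The entries most like each member in pattern were found by Spearman rho of log2 CPM over the 16 libraries, as a description, since these share depth and group. For miR-10a-5p they were miR-676-5p (0.85), the erythroid miR-144-5p (0.84), miR-322-5p (0.84), miR-351-5p (0.81) and miR-17-3p (0.81). For miR-10b-5p they were miR-127-3p of the imprinted Dlk1-Dio3 region (0.80), miR-365-3p (0.78), its relative miR-99b-5p (0.69), miR-3102-3p (0.67) and miR-140-3p, known from cartilage (0.65). The lists of the miR-10 pair thus held no entry in common. For miR-196a-5p the nearest were miR-224-5p (0.85), miR-379-5p (0.83), miR-196b-5p (0.78), miR-411-5p (0.73) and miR-541-5p (0.72), of which miR-379, miR-411 and miR-541 come from the Dlk1-Dio3 region. For miR-196b-5p they were miR-196a-5p (0.78), miR-148a-3p (0.76), miR-101a-3p (0.75), miR-379-5p (0.71) and miR-411-5p (0.66). Each miR-196 member was thus among the 5 nearest of the other, which was not so for the miR-10 pair.

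In mean level, miR-196a-5p stood between miR-133a-3p and miR-378a-3p, and miR-10b-5p stood between miR-195a-5p and miR-17-5p. miR-10a-5p came just after let-7g-5p, and miR-196b-5p just before miR-181a-5p.

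Among the 5 related microRNAs of the miR-99, miR-100 and miR-125 families 1 was higher in Ocn and 0 were lower. This and the counts below stand against 13.7% of all 234 tested entries that passed in either direction. The 5 had a median log2 fold change of 0.15, against -0.20 for the 4 members and 0.01 for all tested entries. The one that rose was miR-99a-5p, with lowest, median and highest values of 959, 1071 and 1248 CPM in Ocn and 554, 775 and 1162 CPM in Prx1. Its log2 fold change was 0.45 (SE 0.14, edgeR adjusted p = 0.0278). The microRNAs with the 10 bases GUAGAUCCGA had values of 0.09 (miR-10a-5p), 0.15 (miR-100-5p, SE 0.13) and 0.45 (miR-99a-5p). Those with GUAGAACCGA had -0.41 (miR-10b-5p) and -0.26 (miR-99b-5p, SE 0.11, edgeR adjusted p = 0.117). Of these 5 microRNAs 1 passed the threshold, and the grouping by shared bases was made with the values known. Of the 9 let-7 and miR-98 guide arms, 8 of which hold the miR-196 seed bases, 0 passed, with log2 fold changes from -0.21 to 0.07.

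**Figure D5:**
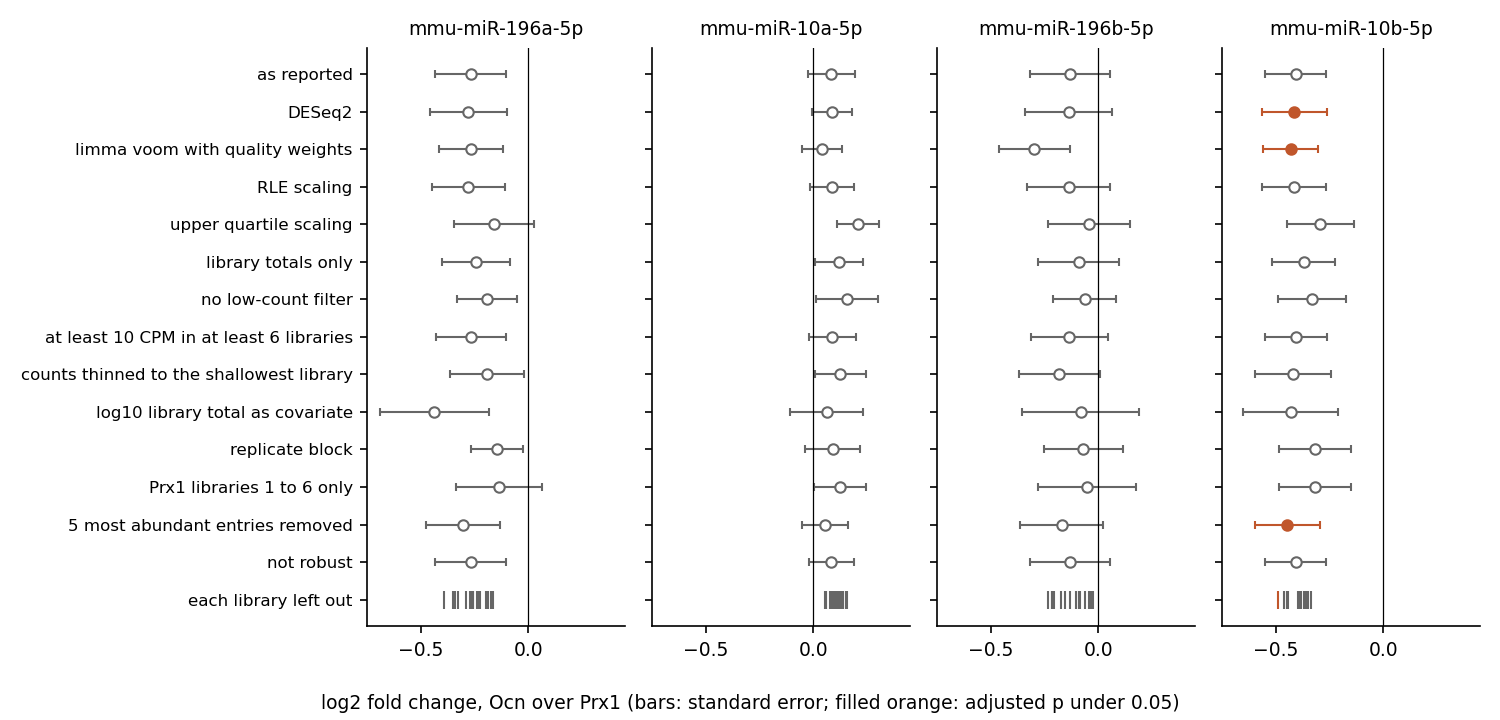
log2 fold change of Ocn over Prx1 for each member (panels) as reported and under each alternative (rows), with standard errors as bars. Ticks in the last row are fits with 1 library left out, and filled orange marks an adjusted p under 0.05. miR-10b-5p lies below 0 in each setting drawn and passes in 3 settings and with 1 library left out, and the other 3 members pass in none.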

How the data were processed

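Per the labels' protocols, 1 ng of RNA per mouse entered a QIAseq miRNA library. The values the authors deposited are counts per mature microRNA, taken as not normalized because they are whole numbers with unequal totals. The submitters' processing notes name cutadapt 1.18 and mm10, while the aligner, counter, annotation and any use of molecular identifiers were not given in the sources used here. Binomial intervals and floors cover counting error only, while intervals of fold changes come from the fit and include the spread between libraries.

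Entries passing filterByExpr by group (minimum count 10) were tested with edgeR 4.0.16 (TMM, robust quasi-likelihood fit, group as the only term) in R 4.3.3, with Benjamini-Hochberg adjustment over all 234. A standard error is the log2 fold change divided by the square root of F. Count ratios had 0.5 added to each count and log2 CPM used a pseudocount of 1. Correlations over 10 libraries used 100000 permutations. Positions are from GENCODE M21. DESeq2 1.42.0 and limma 3.58.1 were among the alternatives. The fit was checked on simulated data.

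The members, lists and tests were chosen with earlier results of these data known. Named were the members, their other arms, miR-615, the miR-99, miR-100 and miR-125 families, let-7 as a group, marker lists, and for each member the 5 entries most like it in pattern and its neighbours in level. No library repeated another: chi-square over degrees of freedom was at least 5.54 in the 60 pairs within groups.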

Additional observations from a re-analysis of the deposited data

Results flagged for a closer look

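In Ocn 3 the ratio of mmu-miR-196b-5p to mmu-miR-196a-5p counts was 1.05, and the nearest of the other 5 Ocn libraries had 0.493. The gap took up 0.981 of the range of the group, above the critical value of 0.625 of Dixon's test for 6 libraries. This ratio was added because Ocn 3 had been seen to stand apart, so the test restates that observation and is no independent evidence of it. It was the 1 marked of 12 sets of values (4 members and 2 ratios in each group), and chance marks about 1 in 20 sets. The CPM of miR-196b-5p itself in Ocn 3 had a gap of 0.557 of its range, below that critical value.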

How the results depend on the processing

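With each library left out in turn, log2 fold changes ran from 0.06 to 0.16 for miR-10a-5p, -0.49 to -0.34 for miR-10b-5p (edgeR adjusted p from 0.0247 to 0.172), -0.39 to -0.16 for miR-196a-5p and -0.23 to -0.03 for miR-196b-5p, and no sign changed. miR-10b-5p passed only with DESeq2 (-0.41), voom (-0.43), the 5 most abundant entries removed (-0.45) and without Prx1 replicate 2 (-0.49). The cause was not tested. With the miR-10 pair summed into 1 entry the value was -0.013 (edgeR adjusted p = 0.928), opposite in sign to miR-10a-5p because miR-10b-5p was added. The difference in the miR-10 ratio stayed between -0.55 and -0.41 with a library left out (exact permutation p from 0.00380 to 0.0440). With Prx1 libraries 1 to 6 only it was -0.41 (exact permutation p = 0.119). The difference in the miR-196 ratio was -0.0081 in thinned counts and -0.060 without Ocn 3.

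The 32 calls became 14 in thinned counts (193 entries tested), and 0 with the log10 total as covariate (40 at an unadjusted p under 0.05, and 42 calls with DESeq2 without the covariate), and ran from 24 to 36 with a library left out. They were 48 with voom. With upper quartile scaling 26 entries were higher and 11 lower (14 and 18 with TMM), the median log2 fold change over all entries was 0.13 (0.01 with TMM), and miR-10b-5p had -0.29.

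The replicate numbers did not pair the libraries: deviations of same-numbered libraries correlated at 0.0151 to 0.220, and 0 of 6 Ocn libraries correlated best with its own number. With a replicate block the miR-10 ratio differed by -0.41 over 6 pairs (exact sign-flip permutation p = 0.156), miR-10b-5p by -0.32 (edgeR adjusted p = 0.252), and 27 entries passed.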
